A study of Mus musculus with 9 samples.

Results

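CpG methylation was examined at the 5 genes of the oxytocin and vasopressin system that encode the peptide precursors and the receptors active in brain: Oxtr, Avpr1a, Avpr1b, Oxt and Avp, out of 34328 genes annotated as protein-coding or as long noncoding RNA. The rule that selects them uses gene names only, but it was set with earlier results of these data known. DNA came from the nucleus accumbens of male C57BL/6J mice aged 8 weeks, 1 library per mouse, and was read by whole-genome bisulfite sequencing, in which unmethylated cytosines are converted and read as T. Of the libraries, 5 were labelled Control (numbers 2, 3, 4, 5 and 8) and 4 Susceptible (numbers 2, 3, 6 and 7). The treatment text, 10 daily defeats by a CD1 male screened for aggression, accompanies every library, controls included. The labels used here describe neither the handling of controls nor the scoring of susceptibility.

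Oxytocin and vasopressin are closely related peptides made mainly by magnocellular and parvocellular neurons of the hypothalamus, each cut from a precursor that also carries its neurophysin. In the accumbens the genes for the peptides are not known as locally abundant transcripts, and the peptides arrive through axons, whereas the oxytocin receptor and the vasopressin 1a receptor are known there for roles in social reward and pair bonding. Both of these receptors, and the vasopressin 1b receptor best known from pituitary corticotrophs and the hippocampus, act through Gq proteins and phospholipase C. Methylation of CpGs around a gene's start is usually low at CpG-rich promoters and high elsewhere, and a punch averages over all its cell types.

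The methylation level is the percent of calls at CpGs read as C, with both strands added. Listed calls, which cover only cytosines with at least 10 calls, ran from 313475624 to 570984634 per library. Their mean was 1.24 times higher in Susceptible than in Control (exact two-sided permutation test over 126 splits, p = 0.00794, the smallest it can give), so depth moves with the groups. The autosomal level ran from 74.5% in Susceptible 7 to 77.1% in Control 5. Control 5 and Control 8 stood apart before any comparison. At CpGs of intermediate level, the squared difference between the strands was on average 18.4 and 19.7 times what counting error gives in these libraries, against 2.38 to 6.11 times in the others. No start window of a cell type marker was called at an adjusted p under 0.05, but neither was any in the genome (0.0% of 31525 tested). Listed were 6 genes each for oligodendrocytes, striatal and cortical neurons, and 5 each for astrocytes and microglia. Only those with a start in the RefSeq promoter table were counted. Higher in Susceptible were 0 of 4 oligodendrocyte genes (median difference −4.15 points), 0 of 4 astrocyte genes (−4.95), 1 of 4 striatal neuron genes (−0.67), 1 of 4 cortical neuron genes (−1.49) and 1 of 3 microglial genes (−0.54). Of all start windows 47.4% were higher, with a median difference of −0.09 points and a median absolute difference of 1.24 points. An unadjusted p under 0.05 was reached by 1 oligodendrocyte window (4.79% of all windows). Gene ends of those not counted differed in direction, as at Adora2a (−1.54 and 4.26 points), and both ends of Mbp were higher (0.26 and 3.69). A change in cell makeup and a change within cells cannot be told apart in a punch.

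The 250 bases before the start are shown for the 4 genes with a start in the RefSeq promoter table (GRCm38.p6), because the genes differ in how many CpGs they carry there and in how these were methylated. Sequences run 5′ to 3′ toward the start, and capitals mark each CG. Avpr1b has no entry in that table. For Oxtr and Oxt the annotated gene reaches beyond this start, so the bases lie inside the outer bounds of the gene.
Oxtr (chr6:112489826-112490075, minus strand): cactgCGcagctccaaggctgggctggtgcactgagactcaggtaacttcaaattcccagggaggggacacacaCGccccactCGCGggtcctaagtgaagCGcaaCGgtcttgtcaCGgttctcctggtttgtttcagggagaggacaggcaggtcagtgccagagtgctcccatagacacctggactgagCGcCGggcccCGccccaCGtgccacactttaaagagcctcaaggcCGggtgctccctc
Avpr1a (chr10:122448249-122448498, plus strand): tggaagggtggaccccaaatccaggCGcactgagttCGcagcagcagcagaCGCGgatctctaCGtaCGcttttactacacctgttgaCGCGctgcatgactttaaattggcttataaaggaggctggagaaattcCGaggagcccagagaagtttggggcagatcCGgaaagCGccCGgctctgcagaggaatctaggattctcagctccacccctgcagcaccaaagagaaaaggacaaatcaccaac
Oxt (chr2:130575919-130576168, plus strand): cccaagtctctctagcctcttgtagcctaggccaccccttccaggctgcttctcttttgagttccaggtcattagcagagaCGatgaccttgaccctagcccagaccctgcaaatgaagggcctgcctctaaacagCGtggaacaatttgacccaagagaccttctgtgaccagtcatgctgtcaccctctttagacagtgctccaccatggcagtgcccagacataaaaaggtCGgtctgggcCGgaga
Avp (chr2:130582589-130582838, minus strand): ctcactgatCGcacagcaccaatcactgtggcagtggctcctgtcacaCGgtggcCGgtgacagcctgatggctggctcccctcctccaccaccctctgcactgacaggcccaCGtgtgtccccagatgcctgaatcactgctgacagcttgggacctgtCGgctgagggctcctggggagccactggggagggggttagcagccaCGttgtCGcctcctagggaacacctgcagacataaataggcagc

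Oxtr and Avpr1a each carried 12 CpGs in these bases and were almost unmethylated there. The mean over libraries of each CpG ran from 0.0% to 18.6% in Oxtr, with a median of 3.8%. In Avpr1a it ran from 0.0% to 15.7%, with a median of 3.31%. The peptide genes were the opposite. Oxt held 4 CpGs at 71.5% to 95.7% (median 86.1%), and Avp held 7 CpGs at 32.4% to 88.8% (median 66.1%). All the CpGs of Oxt and Avp were listed in the 9 libraries, but only 1 of 12 in Oxtr and 3 of 12 in Avpr1a.

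**Figure D1:**
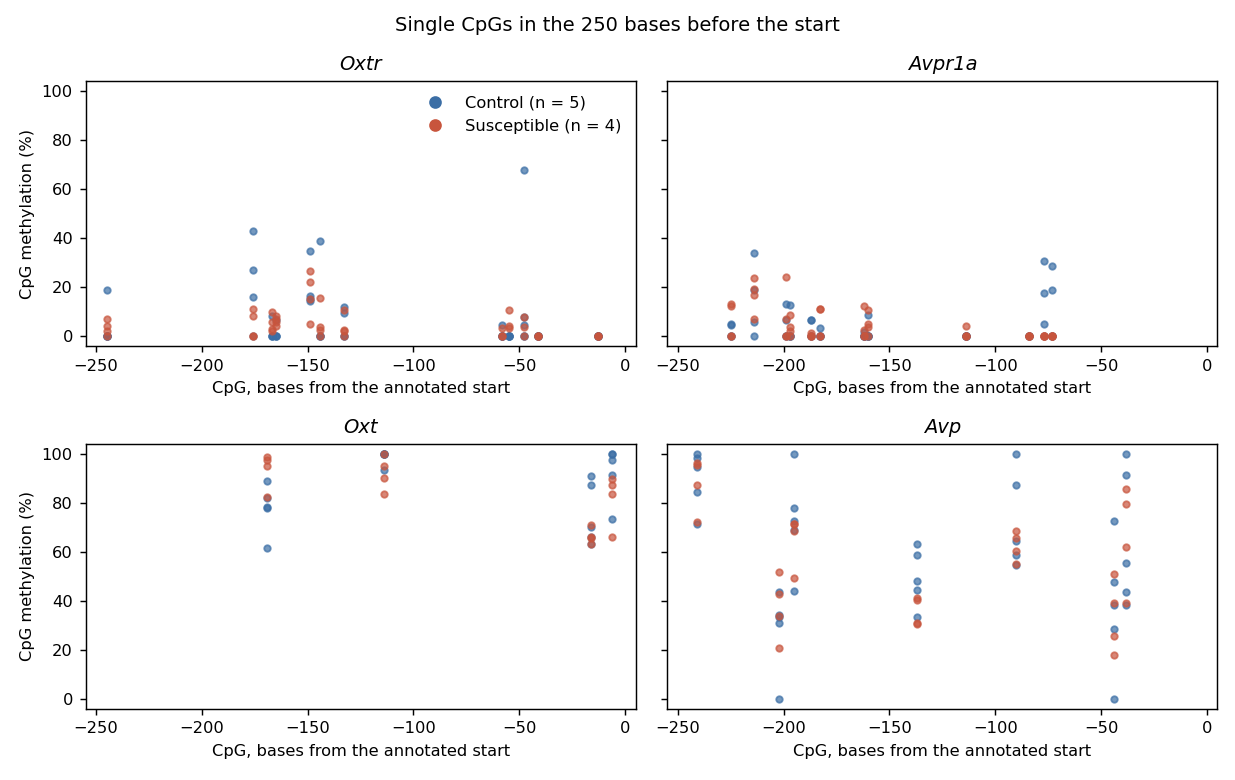
Methylation level (percent) of each CpG in the 250 bases before the start of 4 genes, against its distance from the start in bases. Points are libraries, coloured by group. The CpGs of Oxtr and Avpr1a lie mostly below 20%, those of Oxt between 61.5 and 100%, and those of Avp spread from 0 to 100%.

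Within these bases a few short motifs were searched on both strands. An E-box, CACGTG, the site read by many basic helix-loop-helix factors, occurs in 6.02% of 32851 promoter windows of the table and was found in Oxtr, 43 to 38 bases before the start, and in Avp, 139 to 134 bases before it. Its CpG in Oxtr read 0.0% in each of the 8 libraries that list it. In Avp the same CpG read 58.7, 47.9, 44.3, 63.0 and 33.6% for Control 2, 3, 4, 5 and 8. Susceptible 2, 3, 6 and 7 read 40.4, 41.3, 31.0 and 30.5%. The groups overlapped there, at 49.5% ± 11.7 (SD, n = 5) and 35.8% ± 5.87 (n = 4).

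Oxt held 5 copies of TGACC, the half-site of several nuclear receptors, none of which contains a CG. Any copy is present in 35.2% of the promoter windows and 5 or more in 0.0426%. One copy lies in Oxtr. Avpr1a holds TGACG, a cyclic AMP response half-site present in 17.8% of windows, whose CpG averaged 0.33% in Control and 3.78% in Susceptible and read 12.5% in Susceptible 6 and at most 2.63% in the other libraries. It also holds TATAA, present in 22.8% of windows. Oxtr holds GGGCGG (32.7% of windows), whose CpG 48 bases before the start read 67.6% in Control 8 and 0 to 7.69% in the other 7 libraries listing it. These matches describe letters only, and binding was not measured.

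The start windows, 1 kb to each side of the start, put the genes in the order Avpr1a, Oxtr, Oxt, Avp. Their means over the 9 libraries were 3.93, 13.6, 37.9 and 70.8%. Avpr1b, whose strand and start the tables used here do not give, was read at both annotated ends, at 70.9% around the lower coordinate and 84.0% around the upper. Between Avpr1a, Oxtr, Oxt and Avp the ranges over the 9 libraries did not overlap. The windows of Avp (63.3 to 80.5%) and the lower end of Avpr1b (62.5 to 78.4%) did not differ beyond their spread, and the upper end of Avpr1b (77.6 to 93.3%) overlapped both. No start window of any gene passed an adjusted p of 0.05 (0.0% of 31525 tested), in a quasi-binomial logistic model of the calls with Benjamini-Hochberg adjustment over all windows, nor did any by limma on logit levels. At an unadjusted p under 0.05 stood 1 of the 6 member windows, against 4.79% of all windows.

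Among the receptors, the Oxtr window (130 CpGs, 4235 to 7531 calls per library) read 14.6, 13.8, 13.6, 11.8 and 16.5% in Control and 13.9, 14.2, 14 and 9.97% in Susceptible, in the order of the library numbers given above. The groups overlapped throughout, and Susceptible 7 was the lowest library. Their means were 14.1% ± 1.71 and 13.0% ± 2.03, a difference of −1.06 points (exact permutation p = 0.397, model adjusted p = 0.977). It was −0.04 points without Susceptible 7, −0.46 without Control 8 and −1.63 without Control 5.

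For Avpr1a (103 CpGs, 2662 to 5437 calls) the values were 3.3, 4.09, 1.99, 7.25 and 1.71% in Control and 4.25, 4.5, 4.17 and 4.13% in Susceptible. The Susceptible libraries lay close together inside the wider range of the controls. The difference was 0.59 points, from 3.67% ± 2.22 to 4.26% ± 0.17 (exact permutation p = 0.651, model adjusted p = 0.977). It was 0.10 points without Control 8, 0.17 without Control 4 and 1.49 without Control 5.

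The window around the lower end of Avpr1b (36 CpGs, 1093 to 1537 calls) was the one at an unadjusted p under 0.05. It read 74.0, 66.7, 65.6, 62.5 and 64.4% in Control and 76.2, 75.5, 78.4 and 74.4% in Susceptible. The groups did not overlap, and the highest control, Control 2, lay less than a point under Susceptible 7. Groups without overlap occurred in 1.85% of all start windows, and with Susceptible higher in 0.948%. The means were 66.6% ± 4.42 (n = 5) and 76.1% ± 1.68 (n = 4), 9.5 points apart with a standard error of 2.15 (exact permutation p = 0.0159, model unadjusted p = 0.00108). After adjustment over all windows p was 0.973, so the difference was not called. Without Control 5 and Control 8 it was 7.36 points, restricted to CpGs present in every library 7.09 points, and with windows of 2000 bp to each side 4.20 points.

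Around the upper end of Avpr1b only 10 CpGs were listed, with 210 to 371 calls. The values were 85.5, 80.3, 77.6, 88.6 and 93.3% in Control and 83.6, 81.8, 84.4 and 81.2% in Susceptible, and the groups overlapped. The difference was −2.30 points (exact permutation p = 0.5, model adjusted p = 0.990), and it was 1.64 points in the other direction without Control 5 and Control 8. With 1 library left out it ran from −4.18 points (without Control 4) to −0.23 (without Control 8).

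Of the peptide genes, Oxt (71 CpGs, 2083 to 3234 calls) read 40.1, 39.7, 40.9, 42.4 and 30.5% in Control and 40.5, 38.9, 38.8 and 29.1% in Susceptible. One library of each group, Control 8 and Susceptible 7, lay below the rest, and the rest overlapped. The means were 38.7% ± 4.70 and 36.9% ± 5.19, −1.85 points apart (exact permutation p = 0.468, model adjusted p = 0.990), and without Susceptible 7 the difference was 0.72 points.

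Avp (32 CpGs, 1158 to 1821 calls) read 70.6, 70.4, 67.6, 80.5 and 66.6% in Control and 70.5, 71.5, 76.6 and 63.3% in Susceptible. The highest library was Control 5 and the lowest Susceptible 7, with the others mixed between them. The means were 71.1% ± 5.54 and 70.5% ± 5.48 (difference −0.67 points, exact permutation p = 0.913, model adjusted p = 1.0), and the sign depended on single libraries. With 2000 bp to each side, a window that takes in the whole gene body, the difference was −10.7 points (model unadjusted p = 0.0099, adjusted p = 0.992). The libraries listed between 42 and 77 of the CpGs of that body, and its own difference shrank over CpGs present in every library (below).

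**Figure D2:**
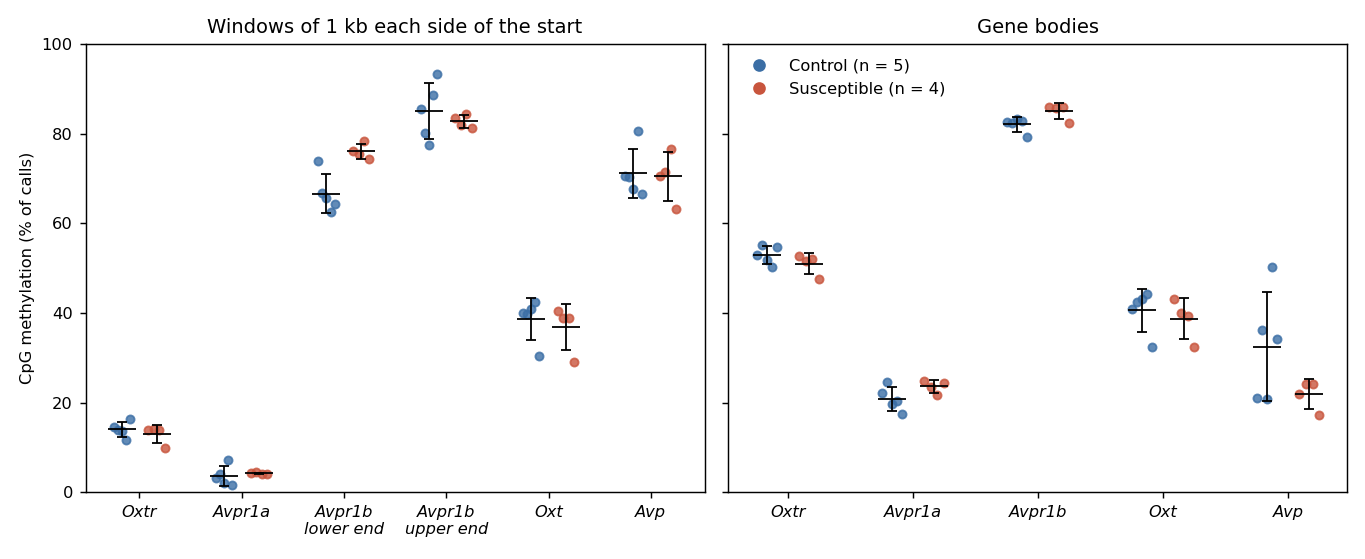
Methylation level (percent) of each member in the start windows, with Avpr1b at its lower and upper ends, and in the gene bodies. Points are libraries, and bars give the mean and SD of the 5 Control and 4 Susceptible libraries. The groups overlap everywhere except at the lower end of Avpr1b, where Susceptible lies at 74.4 to 78.4% and Control at 62.5 to 74.0%.

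No gene body passed the adjusted threshold either (0.0% of 32376 tested), nor by limma, and 1 of the 5 member bodies had an unadjusted p under 0.05, against 4.73% of all bodies. That body was Avpr1b (chr1:131599114-131612000, 153 CpGs), at 82.6, 82.3, 83.2, 82.9 and 79.2% in Control and 86.0, 85.7, 85.9 and 82.5% in Susceptible. Of the Susceptible libraries 3 lay above all controls, and Susceptible 7 lay among the controls. The difference was 2.98 points, from 82.0% ± 1.62 to 85.0% ± 1.71 (exact permutation p = 0.0397, model p = 0.0232, adjusted p = 0.993). The body contains part of the lower-end window and shares calls with it.

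The Oxtr body (chr6:112473683-112491035) read 52.9, 55.2, 51.9, 50.3 and 54.7% in Control and 52.8, 51.6, 52.0 and 47.6% in Susceptible, overlapping, with a difference of −1.98 points (exact permutation p = 0.214), which was −0.84 without Susceptible 7. The Avpr1a body (chr10:122448499-122453453) read 22.1, 24.6, 19.7, 20.4 and 17.6% against 24.9, 23.6, 21.7 and 24.4%, a difference of 2.81 points (p = 0.103 by the same exact test), which was 1.57 without Control 5 and Control 8. It was among the less methylated bodies of the genome, at percentile 5.71 of level.

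The Oxt body (chr2:130574519-130577054) read 40.9, 42.4, 43.0, 44.3 and 32.3% in Control and 43.1, 40.1, 39.4 and 32.4% in Susceptible. As in the overlapping start window, Control 8 and Susceptible 7 were the low libraries. The Avp body (chr2:130580620-130582588) had the largest SD among the controls of the 5 bodies, 12.2 points. It read 21.1, 36.2, 20.9, 50.2 and 34.3% in Control against 21.9, 24.3, 24.2 and 17.2% in Susceptible. Control 3, 5 and 8 lay above every Susceptible library, and Control 2 and 4 among them. The difference was −10.6 points (exact permutation p = 0.135, model adjusted p = 0.993), but the libraries listed between 42 and 77 of its CpGs. Restricted to CpGs present in every library it was −2.61 points. Without Control 5 it was −6.21 points, and without Control 5 and Control 8 it was −4.14.

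Tiles of 1 kb, from 5 kb before to 5 kb after each gene, gave the shape of each locus. Of 87 tiles 70 had enough calls, 2 of them had an unadjusted p under 0.05 (4.38% of all tiles did) and 1 had groups that did not overlap (1.56% of all tiles). In each of these Susceptible was higher, as in 2.18% and 0.598% of all tiles. None was called, as in the whole genome (0.0% of 1041809 tiles). Susceptible was higher in 33 of the 70 (47.6% of all tiles), and their median difference was −0.54 points against −0.18 over all tiles.

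Oxtr had a narrow valley. The tile chr6:112490001-112491000, just upstream of the start, read 5.0, 5.95, 4.8, 3.27 and 7.6% in Control and 4.06, 5.0, 2.97 and 2.68% in Susceptible, the lowest of the locus. This tile lies inside the outer bounds of the gene. The next tile downstream, which holds the start, read 12.8% and 11.0% on average, and the next tile upstream 36.3% and 33.2%. The highest tile was chr6:112492001-112493000, 1 tile further upstream, at 94.8% and 95.9%. The other tiles of the gene averaged between 70.1% and 94.8%, and no Oxtr tile reached an unadjusted p of 0.05. The smallest was at chr6:112494001-112495000, at 85.5% ± 6.68 and 79.4% ± 6.79 (exact permutation p = 0.214, model p = 0.123, adjusted p = 0.997). There the difference of −6.12 points became 2.05 when restricted to CpGs present in every library.

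Avpr1a was low over the start and the kilobase after it. The tile chr10:122448001-122449000 read 3.6, 5.53, 1.23, 11.1 and 1.07% in Control and 5.34, 6.44, 3.92 and 4.47% in Susceptible, and the following tile averaged 4.56% and 5.52%. The valley ended before the next tested tile, at 93.6% and 94.8%, and the highest tile, chr10:122443001-122444000, averaged 94.0% and 97.0%. Of the 16 tiles in the Avpr1a stretch only 9 were tested. Susceptible was the higher group in 9 of these 9, by 0.51 to 16.1 points, against 47.6% of all tiles. Neighbouring tiles come from the same libraries and are not separate tests, and 8 of the 9 did not reach an unadjusted p of 0.05.

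The exception was the tile across the 3′ end of Avpr1a, chr10:122453001-122454000, with 9 CpGs and 158 to 280 calls. The annotated gene ends inside it, at 122453453. It read 67.5, 58.6, 50.6, 49.5 and 47.5% in Control and 74.0, 71.7, 77.7 and 59.9% in Susceptible. Control 2 lay above Susceptible 7, so the groups overlapped. The difference was 16.1 points, from 54.7% ± 8.26 to 70.8% ± 7.69 (exact permutation p = 0.0317, model p = 0.0105, adjusted p = 0.997). The 4 CpGs present in every library gave 13.2 points (exact permutation p = 0.135). Of these, 3 were higher in Susceptible, by 22.0 to 26.4 points, and lie beyond the gene end. The one inside the gene, chr10:122453092, was lower, at 99.6% and 93.9%.

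**Figure D3:**
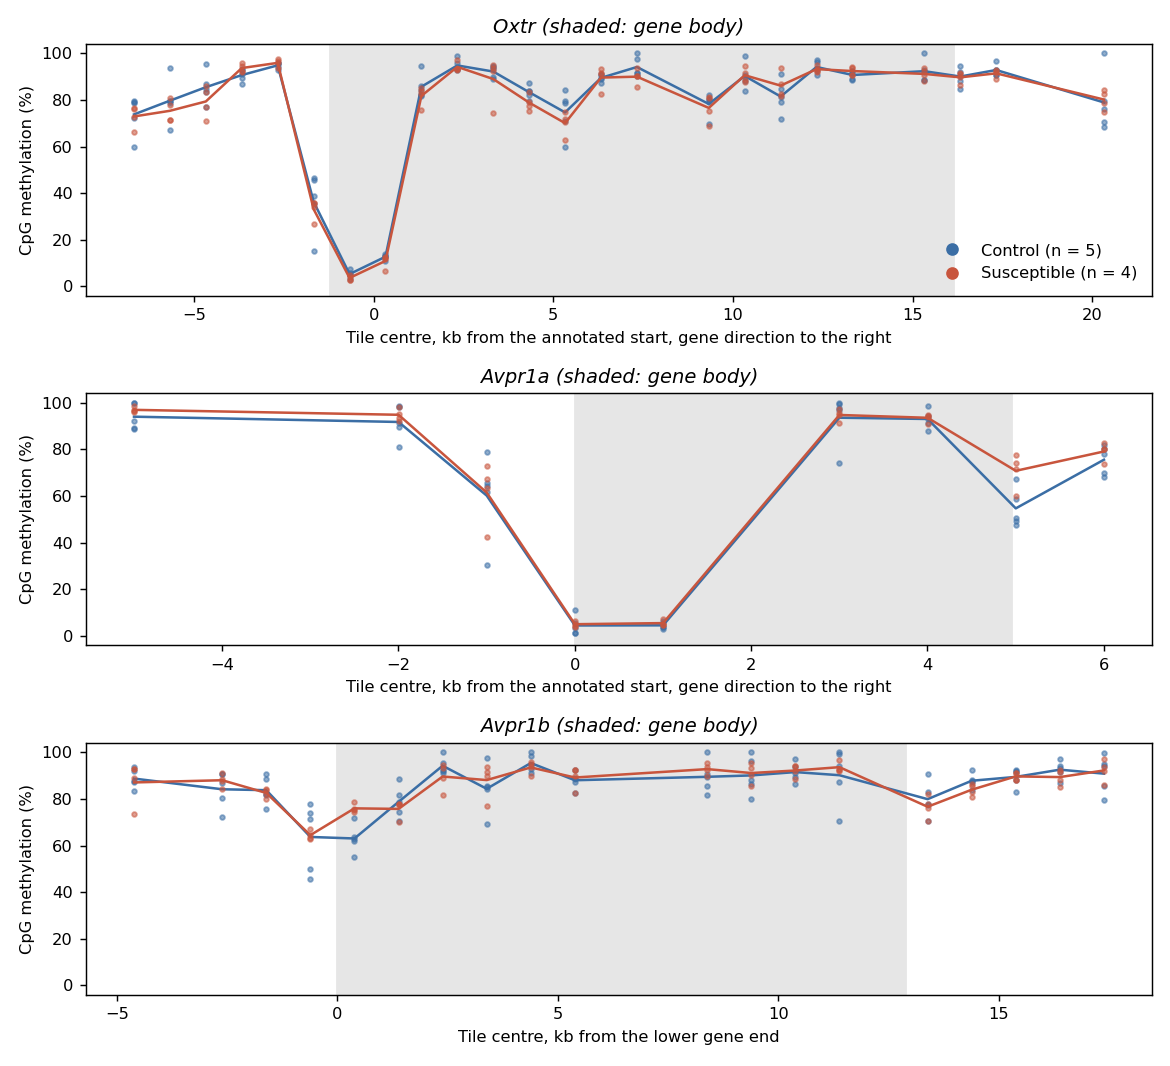
Methylation level (percent) of 1-kb tiles across Oxtr, Avpr1a and Avpr1b, against distance in kilobases from the start, or from the lower annotated end for Avpr1b. Points are libraries, lines are group means and shading marks the gene. Avpr1a falls to about 5% at the start and Oxtr in the tile just upstream of it, while no Avpr1b tile averages below 64.0% over the 9 libraries.

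Avpr1b had no such valley at the 1-kb scale of the tiles tested, though single CpGs near its lower end were less methylated (below). Its least methylated tile was chr1:131598001-131599000, just outside the lower end, at 63.7% ± 14.7 in Control and 64.5% ± 1.78 in Susceptible. Its most methylated was chr1:131603001-131604000, inside the gene, at 95.4% and 93.5%. The tile between them at the lower end, chr1:131599001-131600000, had the smallest unadjusted p among all member tiles. This tile lies wholly inside the lower-end window read above and shares its calls, so it is not a separate observation. It read 71.6, 63.0, 63.8, 54.9 and 61.9% in Control and 75.3, 75.8, 78.5 and 74.2% in Susceptible, with 798 to 1120 calls. The groups did not overlap, and the nearest libraries were Control 2 and Susceptible 7.

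The means of this tile were 63.0% ± 5.96 and 75.9% ± 1.81, a difference of 12.9 points with a standard error of 2.81. The exact permutation p was 0.0159 and the model p 9.53e-05, while limma on logit levels gave 0.0299. Adjusted over all tiles p was 0.997 (0.946 by limma). Without Control 5 and Control 8 the difference was 9.82 points. The tiles to either side showed 0.77 and −3.01 points, with overlapping groups.

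The difference in the Avpr1b tile was also read over only the 17 CpGs that all libraries list, so that each is read at the same sites. Control then read 63.2, 57.7, 59.2, 55 and 55.3% and Susceptible 63.9, 64.8, 72.8 and 65.1%. The groups did not overlap there, by less than a point, and the difference was 8.57 points (exact permutation p = 0.0159). Of the 17 CpGs 10 were higher in Susceptible and 0 had groups that did not overlap. Those nearest the lower end, at chr1:131599127, 131599134 and 131599170, averaged 24.1, 23.8 and 26.0% in Control. In Susceptible they averaged 14.1, 46.7 and 37.8%. The strands were read apart over every cytosine that each library lists in the tile, not only at the 17 CpGs. There the sites differ between libraries. The reverse strand read 58.3% and 73.8%, without overlap (15.5 points, exact permutation p = 0.00794). The forward strand read 71.7% and 80.6%, with overlap (8.95 points, p = 0.167 by the same exact test). The tile was picked for its smallest p and these readings reuse its calls, so their p-values are not separate tests.

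**Figure D4:**
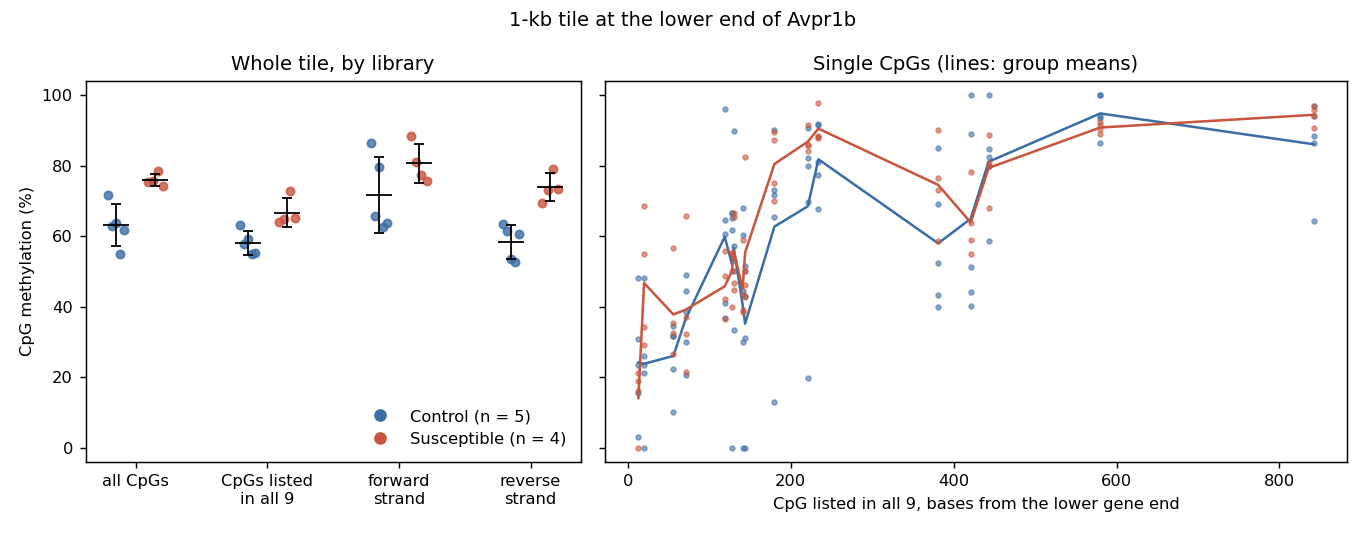
The tile at the lower end of Avpr1b: methylation level (percent) per library over all its CpGs, over those listed in all 9 and by strand, with mean and SD, and single CpGs against distance from that end in bases, with lines for group means. Susceptible is the higher group at 10 of the 17 CpGs listed in all 9 libraries, and at none of them do the groups separate.

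Oxt and Avp lie tail to tail on chromosome 2, 3565 bases apart, and their tiles formed 1 continuous profile whose low part ran from the 3′ end of Oxt across the space between the genes into the Avp body. Upstream of the Oxt start the tiles averaged between 73.9% and 92.3%, with the highest at chr2:130574001-130575000 (89.4% and 92.3%). The tile that holds the Oxt start averaged 34.0% and 30.9%, and the next, at its 3′ end, 17.4% and 13.5%. Between the genes, the tile chr2:130578001-130579000 averaged 19.5% and 20.3%, and the tile after it 31.9% and 22.8%. In the latter Control 8 read 70.1% and the other 8 libraries 13.3 to 28.3%.

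The lowest tile of the pair, chr2:130580001-130581000, covered the 3′ end of Avp. It read 5.3, 7.47, 3.78, 6.61 and 2.43% in Control and 3.97, 3.78, 2.78 and 5.15% in Susceptible, with overlap. Toward the Avp start the level rose to 24.2% ± 9.78 and 17% ± 3.65 in the tile chr2:130581001-130582000, which had the smallest unadjusted p of the pair (0.122, adjusted p = 0.997). It then reached 69.0% and 67.9% in the tile holding the start, and 94.4% and 92.3% in the tile before it, chr2:130583001-130584000, the highest on the Avp side. Susceptible was higher in 4 of 13 tiles for each gene, and 2 of these tiles belong to both stretches.

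**Figure D5:**
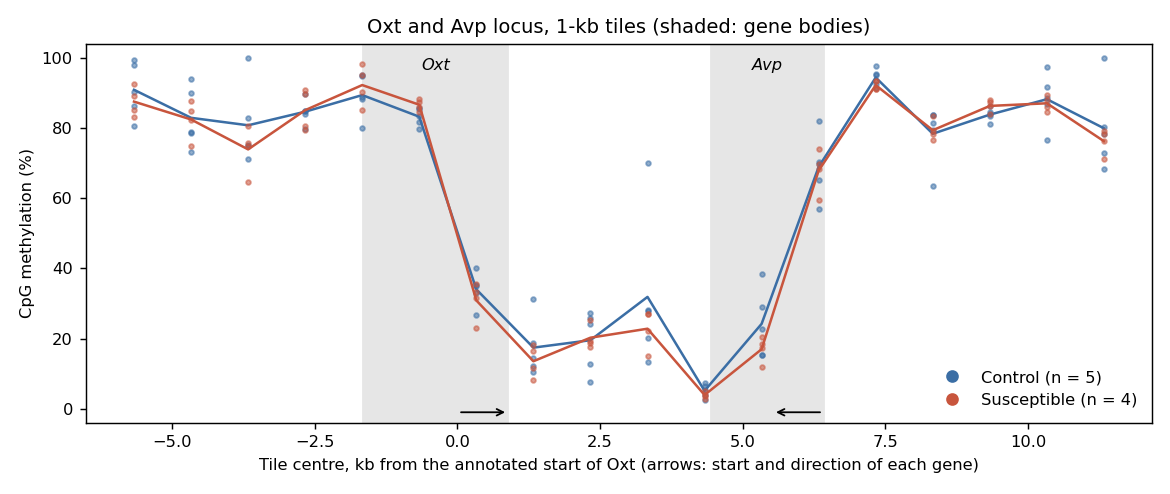
Methylation level (percent) of 1-kb tiles across the Oxt and Avp pair, against distance in kilobases from the Oxt start. Points are libraries, lines are group means, and shading and arrows mark each gene and its direction. The profile is high on both outer sides and lowest, near 5%, over the 3′ end of Avp, with Control 8 standing out at 70.1% in 1 tile between the genes.

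Of 1292 CpGs listed in any library in these stretches, 671 were listed in all 9. Of these 61 had an unadjusted p under 0.05 against 9.51% of all such CpGs. They comprised 32 higher in Susceptible (2.71% of all) and 29 lower (6.8%). At 14 the groups did not overlap (1.72% of all), with 6 higher in Susceptible (0.314%) and 8 lower (1.41%). Susceptible was higher at 313 of the 671, against 45.3% of all. None was called, and no CpG was in the genome (0.0% of 5818940). Oxtr held 10 of the 14 among its 289 CpGs, of which 4 were higher in Susceptible. Avp held 3 among 139, Oxt 2 among 107, Avpr1a 1 among 109 and Avpr1b 0 among 112, with the shared CpGs counted for both peptide genes. The CpGs of Avpr1a had a median level of 2.63% and those of Oxtr 84.3%.

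The Oxtr CpG of smallest p, at chr6:112488175 inside the gene, read 97.6, 92.6, 92.3, 100 and 95.8% in Control and 80.4, 86.8, 70 and 77.4% in Susceptible. Every Susceptible library lay below every control, from 20 to 63 calls each. The difference was −17 points, from 95.7% ± 3.28 to 78.7% ± 6.98 (exact permutation p = 0.00794, model p = 0.00109, adjusted p = 0.438). An Avp CpG at chr2:130583132, upstream of the start, likewise separated the groups, at 93.4, 93.8, 100, 100 and 100% against 85.7, 90.9, 84.3 and 73.5% (exact permutation p = 0.00794, model adjusted p = 0.438).

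In Oxt the CpG at chr2:130576896, inside the gene, read 27.3, 34.8, 24.2, 29.4 and 31.9% in Control and 32.1, 59.1, 55 and 68.8% in Susceptible. Susceptible 2 lay among the controls and the other 3 above them, with means of 29.5% ± 4.07 and 53.7% ± 15.5 (exact permutation p = 0.0159, model adjusted p = 0.446). At chr10:122449249 in Avpr1a every Control library read 0%, and Susceptible read 12.5, 4.05, 0 and 2.08%. The libraries had 32 to 76 calls there (exact permutation p = 0.0476, model adjusted p = 0.438). At chr1:131595730 near Avpr1b every Control library read 100%, and Susceptible read 96.2, 100, 97.6 and 92.1%. Calls ran from only 10 to 52 per library (exact permutation p = 0.0476, model adjusted p = 0.459).

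Of the other genes of the pathway, 28 that serve synthesis, release, transcription or signalling were read in the same way. For 6 of them, including Grk2, Arrb1 and Arrb2, the promoter table gives no start, and both gene ends were read as for Avpr1b, which made 34 windows in all. Of these 0 were called, 2 had an unadjusted p under 0.05 and both were higher in Susceptible (2.31% of all windows were), and 20 of 34 were higher (47.4% of all windows were), with a median difference of 0.20 points against −0.09 over all windows. Both were windows at a gene end whose relation to the start is not given in the tables used here. They were the lower ends of Grk2 (57.4% and 71.2%, exact permutation p = 0.0317, model p = 0.00512), a kinase that phosphorylates activated receptors, and of Arrb2 (2.92% and 4.96%, exact permutation p = 0.0317, model p = 0.0172), an arrestin that then binds them. Their adjusted p was 0.973. The upper end of Grk2 read 6.66% and 5.81% (−0.85 points, exact permutation p = 0.413), in the opposite direction, and the upper end of Arrb2 read 91.3% and 92.8% (1.53 points, p = 0.54 by the same exact test).

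Among the 28 gene bodies 0 were called, 3 were higher and 1 lower at an unadjusted p under 0.05 (1.44% and 3.29% of all bodies), and 13 were higher in Susceptible (40.6% of all bodies were). The smallest p values were those of Pcsk2, a convertase that cuts peptide precursors (74.4% and 77.7%, exact permutation p = 0.0476, model p = 0.00973), and of Sim1, a factor needed for magnocellular neurons. Sim1 read 40.1, 37.9, 37.9, 39.7 and 37.5% in Control and 36.9, 35.5, 35.3 and 35.7% in Susceptible, without overlap (−2.74 points, exact permutation p = 0.00794, model p = 0.00979, adjusted p = 0.993). Groups without overlap occurred in 1.61% of all bodies, and with Susceptible lower in 1.14%.

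The genes most like each member were found by the mean absolute difference of start-window level over the 9 libraries, among the 15416 protein-coding candidates (15417 for Avpr1b). For Oxtr they were Osmr and Insl3, 1.0 and 1.01 points away, and for Avpr1a Tyro3 and Tfcp2, 0.42 and 0.45 points away. A near match was common for Avpr1a, since 3078 genes lay within 2 points, and rarer for Oxtr with 67. For the lower end of Avpr1b they were Tank and Gm9997 (2.86 and 3.24 points), and for the upper end 2610528A11Rik and Ncr1 (both 1.64). For Oxt they were Epor and Klk13 (2.15 and 2.23), and for Avp Nlrp6 and Krtdap (2.12 and 2.48). No gene lay within 2 points of Oxt, Avp or the lower end of Avpr1b.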

How the data were processed

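Each of the 9 libraries had 1 deposited table of CpG cytosines by strand. Per the file headers, it gives the count of calls (coverage) and the percentages of them that were C (methylated) and T (unmethylated), and every listed cytosine has at least 10 calls. The submitters' processing notes name Bismark, Bowtie, Picard and mm10, without versions. Per the labels' protocols, libraries were made with the Pico Methyl-seq kit. Methylated calls were recovered as count times percent, and strands and CpGs were summed. Positions were checked against RefSeq GRCm38.p6: of 350475 listed CpGs in promoter windows, 100.0% lay on a CG of that sequence.

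Windows of 1000 bp each side of the start, gene bodies, 1-kb tiles (each needing 3 CpGs and 20 calls per library) and CpGs listed in all 9 were each fitted with a quasi-binomial logistic model whose dispersion was moderated with limma's formulas (limma 3.58.1, R 4.3.3; Python 3.11.15, SciPy 1.17.1). p-values were adjusted by Benjamini-Hochberg over all features of a kind. Exact permutation tests were two-sided over 126 splits, with 0.00794 the smallest p. The code was tested on simulated data.

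Members, lists and tests were chosen with earlier results of these data known. Named tiles and CpGs were those of highest and lowest level and of smallest p. For the pathway list they were the 2 of smallest p in each kind of window. The likeness measure took the 2 nearest genes. Alternatives covered test, dispersion, call minimum, weighting, CpG set, window size, depth, replicate block and each library left out.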

Additional observations from a re-analysis of the deposited data

Results flagged for a closer look

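Of 30 sets of libraries examined for 1 value far from the rest of its group, 7 had one, where chance gives about 1 in 20, and several of the windows overlap. Susceptible 7 was low in the Oxtr start window, at 9.97% against 13.9 to 14.2% in the rest of its group. It was also low in the Oxt start window, at 29.1% against 38.8 to 40.5%, and in the Avpr1b gene body, at 82.5% against 85.7 to 86.0%. Control 8 was low in the Oxt start window (30.5% against 39.7 to 42.4%), in the overlapping Oxt body (32.3% against 40.9 to 44.3%) and in the Avpr1b body (79.2% against 82.3 to 83.2%). Control 5 was high in the Avp start window, at 80.5% against 66.6 to 70.6%. Susceptible 7 also had the lowest autosomal level (74.5%), and Control 5 and Control 8 the largest differences between the strands of a CpG (18.4 and 19.7 times counting error). The part of these in the outlying values was not tested.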

How the results depend on the processing

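No member window, body, tile or CpG passed an adjusted p of 0.05 under any alternative run. The lower end of Avpr1b stayed higher in Susceptible under every alternative, by 4.20 points (2000 bp each side) to 11.1 points (at least 20 calls), and by 8.46 to 11.3 with 1 library left out. Because its groups did not overlap in the fit reported, leaving libraries out could change the size of this difference but not its sign. The Avp start window turned to 1.21 points with at least 20 calls, 0.96 without Control 5 and Control 8, and 2.67 with listed calls as a covariate, and ran from −2.70 to 1.73 with 1 library left out (higher in Susceptible without Control 5 or Susceptible 7). The upper end of Avpr1b turned to 1.64 points without Control 5 and Control 8. With 1 library left out, Oxt ran from −3.90 to 0.72 points in the start window and from −3.90 to 0.28 in the body, turning only without Susceptible 7. The Oxtr tile of smallest p turned to 2.05 points over CpGs listed in all 9, an alternative added after seeing the data. The cause of these turns was not tested.

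At an unadjusted p under 0.05 the member start windows numbered 1 in the fit reported, 2 with listed calls as a covariate, 2 with 2000 bp each side, and 1 to 2 with 1 library left out (2 without Control 5). The member bodies numbered 1, and 0 without Control 5 and Control 8 or with CpGs weighted equally, and 0 to 2 with 1 library left out. The Avpr1b body's own unadjusted p rose above 0.05 without Control 8, Susceptible 2, Susceptible 3 or Susceptible 6. Member tiles numbered 2 to 6 (6 without Control 5). Member CpGs numbered 61, then 31 by limma, 27 of 216 tested with at least 20 calls, and 46 to 84 with 1 library left out. Pathway start windows numbered 2, then 4 over CpGs listed in all 9, 4 with the covariate, and 2 to 5 with 1 library left out (4 without Control 2, 5 without Control 4). Pathway bodies numbered 4, then 0 by limma, 2 without moderation, 2 with at least 20 calls, 1 with the covariate, and 2 to 4 with 1 library left out. Counts over the whole genome moved as well. With 1 library left out they ran from 1082 to 1820 start windows and from 1253 to 1842 bodies. For tiles they ran from 29685 to 60588, and for CpGs from 470240 to 670163. Shares over all features are not given for the other alternatives, so the member and pathway counts are not read as results about these genes.

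Replicate numbers 2 and 3 occur in both groups. The deviations of same-numbered libraries from their group means gave correlations of 0.03 and −0.03 over 31525 start windows. With only these numbers shared, that cannot decide whether the numbers mark pairs. With the replicate block only the libraries numbered 2 and 3 inform the group difference, since no other number occurs in both groups. Over these libraries alone the Avp start window was 0.53 points and the lower end of Avpr1b 5.49 points. The block fit leaves almost nothing to estimate the spread between libraries, so its counts carry little weight. At an unadjusted p under 0.05 member start windows numbered 0, member bodies 0, pathway start windows 1 and pathway bodies 2. With 500 bp windows the upper end of Avpr1b gave no value. Calls per library were fewest at the upper end of Avpr1b (210 to 371) among the member start windows, which limits its precision.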
